A study of Homo sapiens with 4 samples.

Results

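The genes described here are 10 genes of protein folding in the endoplasmic reticulum (ER): HSPA5, HSP90B1, XBP1, DNAJB9, DNAJB11, HERPUD1, SDF2L1, PDIA4, PDIA6 and CALR. They were chosen by name for their function, with earlier results of these data known, and are 10 of 18131 genes listed in 4 tables of single-cell counts. All 10 were listed in every table. The cells are HCC1143, an established human line from a triple-negative breast carcinoma, profiled with droplet capture (Chromium) of poly(A) RNA and counting of unique molecular identifiers (UMIs). All groups were plated and left for 24 h to attach. The groups were DMSO, the solvent, for 24 h, 1 nM paclitaxel for 24 h, DMSO for 72 h, and 1 nM paclitaxel for 72 h, with 1 library per group. Paclitaxel is a taxane that stabilises microtubules. The line comes from 1 tumour, and the labels name no genetic change in any group.

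Secreted and membrane proteins fold in the ER, where HSPA5 (BiP) and HSP90B1 (GRP94) hold unfolded chains, calreticulin holds glycoproteins and protein disulfide isomerases form disulfide bonds. When unfolded chains build up, the sensors IRE1, PERK and ATF6 start the unfolded protein response. IRE1 splices XBP1 mRNA into a form that encodes an active transcription factor, and XBP1 and ATF6 act on promoters of chaperone and degradation genes through ER stress response elements. The tables hold 1 value per gene symbol, so spliced and unspliced XBP1 RNA cannot be told apart here.

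The promoters of these genes are shown first because 7 of the 10 carry such an element within 250 bases before to 50 bases after a RefSeq start site (GRCh38.p14). All 10 genes had a promoter entry, in 13 windows. The element ERSE was searched on both strands as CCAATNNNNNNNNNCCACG and was found for HSPA5, HSP90B1 (with 2 matches), XBP1, PDIA6 and CALR. It was in 27 of 35116 promoter windows of all genes (0.0769%), or 0.0916% of the genes searched. The element ERSE-II, searched as ATTGG and CCACG with 1 base between them, was found for HERPUD1 and SDF2L1. It was in 19 of the 35116 windows (0.0541%), or 0.0696% of the genes searched. Capitals mark the match, each sequence is read 5′ to 3′ on the strand of its gene, and stretches stop where an annotated exon begins or are kept short inside one.
HSPA5, chr9:125241376-125241424, minus strand: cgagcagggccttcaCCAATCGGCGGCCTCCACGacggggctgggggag
HSP90B1, upstream match, chr12:103930211-103930239, plus strand: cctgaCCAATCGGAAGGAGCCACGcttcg
HSP90B1, downstream match in reverse, chr12:103930316-103930344, plus strand: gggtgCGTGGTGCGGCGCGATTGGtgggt
XBP1, chr22:28800598-28800636, minus strand: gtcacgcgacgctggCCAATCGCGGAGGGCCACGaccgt
PDIA6, chr2:10812845-10812886, minus strand: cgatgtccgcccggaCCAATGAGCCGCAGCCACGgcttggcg
CALR, match in reverse, chr19:12938369-12938417, plus strand: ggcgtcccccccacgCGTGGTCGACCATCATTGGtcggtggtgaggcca
HERPUD1, ERSE-II, chr16:56932010-56932047, plus strand: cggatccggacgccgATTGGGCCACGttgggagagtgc
SDF2L1, ERSE-II in reverse, chr22:21642099-21642139, plus strand: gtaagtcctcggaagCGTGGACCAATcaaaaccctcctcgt
Neither element was matched for DNAJB9, DNAJB11 or PDIA4. The UPRE core TGACGTG was matched in 0 of the 10 genes and in 1.97% of all windows. The CARE core TGATGCAA, read by ATF4 dimers, was matched in HERPUD1 alone and in 0.866% of all windows. The shorter CCAAT, which lies within both elements, was matched in all 10 genes and in 34.6% of all windows, and CCACG in 9 genes and 38.1% of windows. These are letter matches in fixed windows and were not tested for binding or enrichment. The elements are known from promoters of ER chaperone and degradation genes, so matches in genes chosen for that function are a description, not separate support.

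The 4 tables held 526 to 1102 barcodes, and 3180 of 3194 were kept. Kept cells had medians of 54864 to 59670 UMIs, and library totals lay between 34850724 and 72024235 UMIs. The DMSO 72 h library stood apart: ribosomal protein genes took 40.4% of its UMIs, against 27.8% in DMSO 24 h, 32.9% in paclitaxel 24 h and 28.6% in paclitaxel 72 h. The 72 h ratios of the 10 genes and the counts of genes called are therefore also given against DMSO 24 h. Paclitaxel 72 h and DMSO 24 h differ in both treatment and time, so that pair cannot tell treatment and time apart. Across libraries, 7 barcodes occurred in 2 libraries. All 10 breast epithelial markers were listed, with a summed level of 2459 to 5375 counts per 1000000 UMIs (CPM). Fibroblast markers (2 of 7 listed) summed to 10.7 to 14.8 CPM, endothelial markers (3 of 5) to 2.25 to 10.9 CPM and plasma and B cell markers (2 of 6) to at most 0.66 CPM. Leukocyte markers (4 of 7) summed to 7.41 CPM in DMSO 24 h, 9.04 in paclitaxel 24 h, 8.92 in DMSO 72 h and 24.7 in paclitaxel 72 h. Of the last value CD68 made up 19.6 CPM, PTPRC was at 0.29 CPM, and CD3D, CD3E and TYROBP were in no table. The part of these markers in the results was not tested.

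Levels are CPM of summed UMIs. Where 4 values follow each other without names, the 24 h libraries come first and the 72 h libraries after them, DMSO before paclitaxel at each time. Between 2 libraries, the log2 ratio of a gene was reduced by the median over genes averaging 50 CPM or more, which gives the relative log2 ratio, with an exact 95% interval. The medians subtracted were -0.14 for paclitaxel against DMSO at 24 h, 0.32 at 72 h, -0.41 for DMSO at 72 h against 24 h, and -0.04 for paclitaxel 72 h against DMSO 24 h. Intervals reflect counting error alone. No replicate libraries exist, so there is no p-value and each ratio describes a pair of libraries. UMIs behind a level ranged from 452 (DNAJB9 in DMSO 72 h) to 25224 (CALR in DMSO 24 h).

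Paclitaxel at 72 h had higher levels of all 10 genes than DMSO at 72 h, and the same DMSO library had lower levels of 9 of the 10 than DMSO at 24 h. Of these 9, XBP1 and HERPUD1 were higher in DMSO 72 h once ribosomal protein and mitochondrially encoded genes were left out of the total. XBP1 was then at 66.0 against 63.8 CPM in DMSO 24 h, and HERPUD1 at 35.5 against 31.8 CPM. Set against DMSO 24 h, the paclitaxel 72 h library was higher for XBP1, HERPUD1, DNAJB9 and HSPA5, near the median of all genes for DNAJB11 and PDIA6, and lower for HSP90B1, SDF2L1, PDIA4 and CALR. At 24 h, DNAJB9 and HERPUD1 had the highest ratios for paclitaxel, and CALR the lowest. In cells without a UMI of the proliferation genes MKI67 and TOP2A, the 24 h log2 ratio before subtraction of the median was 0.22 for DNAJB9, below HERPUD1 (0.72), XBP1 (0.39) and DNAJB11 (0.27).

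**Figure D1:**
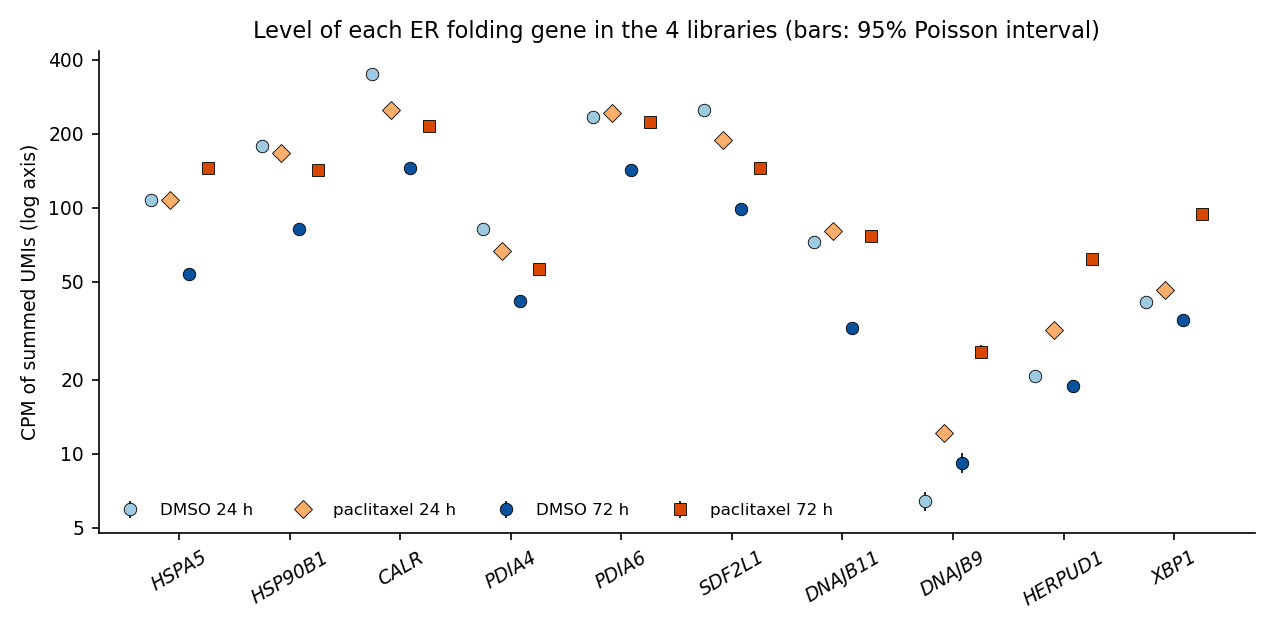
Level of each gene in CPM of summed UMIs on a log axis, 1 point per library with its 95% Poisson interval, mostly hidden by the point. The DMSO 72 h point is the lowest of the 4 for every gene except DNAJB9, and the paclitaxel 72 h point is the highest for HSPA5, DNAJB9, HERPUD1 and XBP1.

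HSPA5, the Hsp70 chaperone of the ER that also restrains the stress sensors, lies on chromosome 9 from 125234853 to 125241330 (minus strand). It was at 108 CPM in DMSO 24 h, 107 CPM in paclitaxel 24 h, 53.7 CPM in DMSO 72 h and 145 CPM in paclitaxel 72 h. Both 24 h libraries had overlapping intervals, and the 72 h libraries lay below and above them. The relative log2 ratio of paclitaxel was 0.13 (0.08 to 0.18) at 24 h and 1.12 (1.05 to 1.18) at 72 h. With DMSO 24 h as the reference the paclitaxel 72 h library had 0.47 (0.42 to 0.52), so HSPA5 was above both DMSO libraries.

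HSP90B1, the Hsp90 of the ER, lies on chromosome 12 from 103930107 to 103953645. Its levels were 178 CPM in DMSO 24 h, 167 CPM in paclitaxel 24 h, 81.6 CPM in DMSO 72 h and 142 CPM in paclitaxel 72 h. No intervals overlapped, and paclitaxel 72 h lay between DMSO 72 h and the 24 h libraries. The relative log2 ratio at 72 h was 0.48 (0.42 to 0.54) against DMSO 72 h but -0.29 (-0.34 to -0.24) against DMSO 24 h. Its exons overlap those of C12orf73 on the other strand, and the strand setting of the counting was not stated.

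CALR encodes calreticulin, a calcium-binding chaperone of glycoproteins, and lies on chromosome 19 from 12938578 to 12944489. It was at 350 CPM in DMSO 24 h, 250 CPM in paclitaxel 24 h, 145 CPM in DMSO 72 h and 214 CPM in paclitaxel 72 h. DMSO 24 h was the highest and DMSO 72 h the lowest, with no overlap between any 2 intervals. The relative log2 ratio was -0.35 (-0.38 to -0.32) at 24 h, 0.25 (0.20 to 0.30) at 72 h, and -0.67 (-0.71 to -0.63) for paclitaxel 72 h against DMSO 24 h. The annotation places an antisense gene over its exons.

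PDIA4 and PDIA6 encode protein disulfide isomerases. PDIA4, on chromosome 7 from 149003062 to 149028641, was at 81.7, 66.7, 41.7 and 56.3 CPM in the order above. PDIA6, on chromosome 2 from 10783391 to 10837977, was at 233, 242, 142 and 224 CPM. Both were lowest in DMSO 72 h, but PDIA6 differed little among the other libraries whereas PDIA4 was highest in DMSO 24 h. At 72 h the relative log2 ratio was 0.11 (0.02 to 0.20) for PDIA4 and 0.34 (0.29 to 0.38) for PDIA6, and that of PDIA4 was the smallest of the 10 genes. With DMSO 24 h in place of DMSO 72 h these became -0.50 (-0.57 to -0.42) and -0.02 (-0.06 to 0.02). PDIA6 shares exon positions with ATP6V1C2 on the other strand.

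SDF2L1 and DNAJB11 (ERdj3) work with HSPA5, SDF2L1 as a partner of ER J-domain proteins and DNAJB11 as a soluble J-domain co-chaperone. SDF2L1, on chromosome 22 from 21642261 to 21644298, was at 249 CPM in DMSO 24 h, 189 CPM in paclitaxel 24 h, 98.6 CPM in DMSO 72 h and 145 CPM in paclitaxel 72 h. DNAJB11, on chromosome 3 from 186567403 to 186585800, was at 72.4, 80.4, 32.5 and 76.7 CPM in the same order. SDF2L1 followed the order of CALR, with DMSO 24 h the highest. For DNAJB11 the DMSO 72 h library alone stood below, and the paclitaxel 72 h interval overlapped those of both 24 h libraries. The relative log2 ratio at 72 h was 0.24 (0.18 to 0.30) for SDF2L1 and 0.92 (0.83 to 1.01) for DNAJB11. It was -0.74 (-0.79 to -0.69) and 0.12 (0.05 to 0.19) against DMSO 24 h. TBCCD1 overlaps DNAJB11 on the other strand.

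DNAJB9 (ERdj4), a J-domain co-chaperone that represses IRE1 through HSPA5 and acts in degradation, lies on chromosome 7 from 108569568 to 108574850. It was at 6.40 CPM in DMSO 24 h, 12.2 CPM in paclitaxel 24 h, 9.18 CPM in DMSO 72 h and 26.0 CPM in paclitaxel 72 h, with no overlapping intervals. The order placed both paclitaxel libraries above both DMSO libraries. Relative log2 ratios of paclitaxel were 1.07 (0.90 to 1.24) at 24 h and 1.18 (1.02 to 1.35) at 72 h. Paclitaxel 72 h against DMSO 24 h, which differ in treatment and time, gave 2.06 (1.90 to 2.23). The 24 h value before subtraction, 0.93, became 0.22 where cells with MKI67 or TOP2A UMIs were left out, which left 50 cells in DMSO 24 h. Exons of PNPLA8 and THAP5 overlap it on the other strand. In DMSO 72 h, 1 cell held 55 of the 452 DNAJB9 UMIs. Without the 5 cells of each library with the highest summed level of the 10 genes, a step added after seeing the data, DNAJB9 was at 7.96 CPM in DMSO 72 h and 25.9 CPM in paclitaxel 72 h.

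HERPUD1 encodes a membrane protein that assembles the ER degradation complex, and lies on chromosome 16 from 56932048 to 56944863. Its levels were 20.6 CPM in DMSO 24 h, 32.0 CPM in paclitaxel 24 h, 18.8 CPM in DMSO 72 h and 62.0 CPM in paclitaxel 72 h. The intervals of the DMSO libraries overlapped, and both paclitaxel libraries lay above them. HERPUD1 had the highest relative log2 ratio of the 10 at 72 h, 1.40 (1.29 to 1.52), after 0.77 (0.67 to 0.88) at 24 h. The 72 h ratio was 1.63 (1.53 to 1.72) against DMSO 24 h.

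XBP1, the transcription factor of the pathway, lies on chromosome 22 from 28794555 to 28800597. It was at 41.3 CPM in DMSO 24 h, 46.2 CPM in paclitaxel 24 h, 34.9 CPM in DMSO 72 h and 94.0 CPM in paclitaxel 72 h. The first 3 libraries lay close together and paclitaxel 72 h stood above them. Its relative log2 ratio was 0.30 (0.23 to 0.38) at 24 h, 1.11 (1.03 to 1.20) at 72 h and 1.23 (1.15 to 1.30) at 72 h against DMSO 24 h. No other gene shares its exon positions, and its pseudogene XBP1P1 was in no table.

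**Figure D2:**
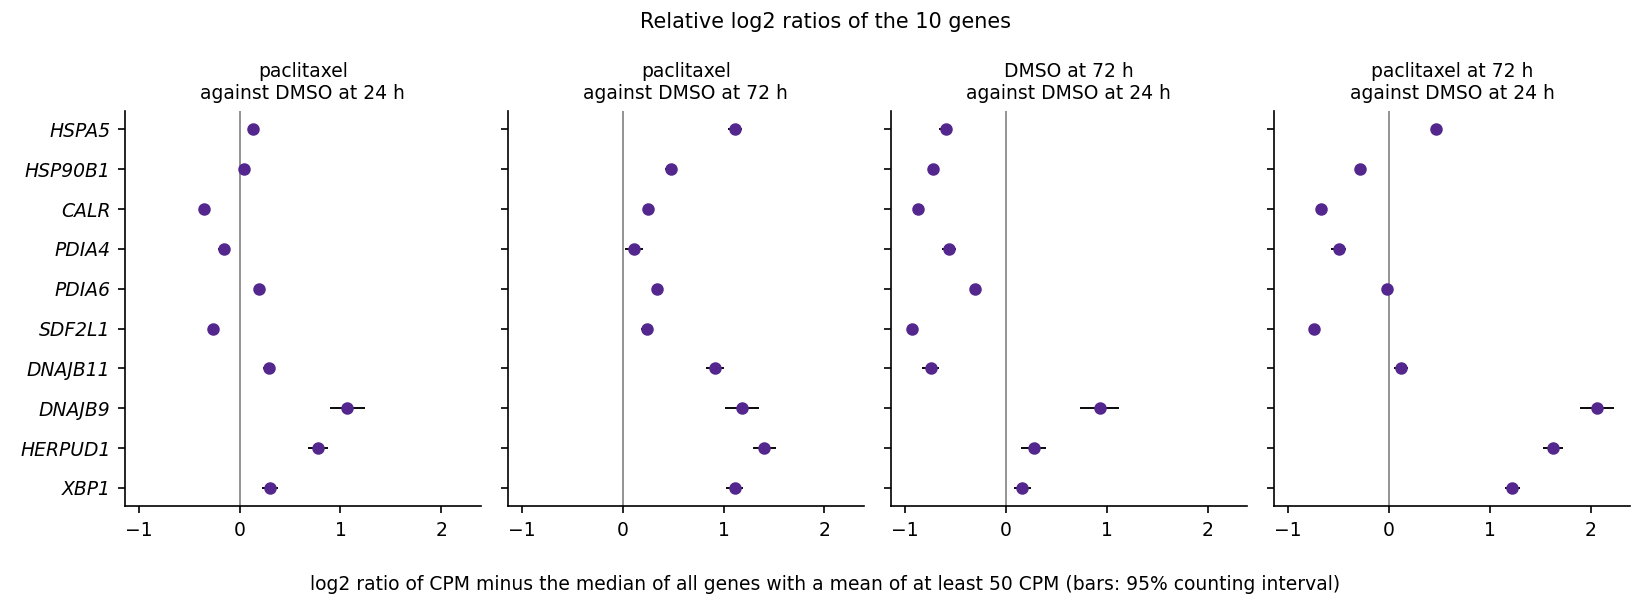
Relative log2 ratio of each gene in 4 comparisons, with 95% counting intervals; 0 is the median over genes averaging 50 CPM or more. At 72 h all 10 points lie right of 0 against DMSO 72 h, while against DMSO 24 h only DNAJB9, HERPUD1, XBP1, HSPA5 and DNAJB11 do.

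A gene was counted as higher or lower when it differed by at least 1.5-fold before subtraction of the median, had a mean of at least 50 CPM and an interval that excluded a ratio of 1. At 24 h, 0 of the 7 genes that reached 50 CPM were higher and 0 lower with paclitaxel, where 4.22% of all genes were higher and 4.41% lower. With a minimum of 10 CPM, 9 genes reached it and HERPUD1 alone was higher, against 4% of all genes higher and 3.62% lower. DNAJB9, at 1.90-fold, had a mean of 9.29 CPM and stayed under that minimum.

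At 72 h, 5 of 7 genes were higher (HSPA5, HSP90B1, XBP1, DNAJB11 and PDIA6) and 0 lower, where 27.9% of all genes were higher and 2.74% lower. XBP1 and DNAJB11 reached the 50 CPM mean through the paclitaxel library, so this count is a description. With the minimum of 10 CPM, 7 of 10 were higher, DNAJB9 and HERPUD1 added, against 25.2% of all genes higher and 2.13% lower. DNAJB9, at 9.18 CPM in DMSO 72 h, reached that minimum through the paclitaxel library. Scaling by TMM factors left 3 genes higher, as HSP90B1 and PDIA6 no longer passed 1.5-fold. Against DMSO 24 h, 1 of 8 genes was higher (XBP1) and 2 were lower (SDF2L1 and CALR), beside 13.9% and 14.7% of all genes. With 10 CPM, 3 of 10 were higher (XBP1, DNAJB9 and HERPUD1) and the same 2 lower, beside 16.2% and 11.8%; XBP1 at the first minimum and DNAJB9 at the second reached it through the paclitaxel library.

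In DMSO alone, 7 of 7 genes were lower at 72 h than at 24 h and 0 higher, where 35.5% of all genes were lower and 6.92% higher. DNAJB11 and PDIA4 reached the 50 CPM mean through the DMSO 24 h library, so this count is a description. With 10 CPM the count was 7 of 9 lower, beside 25.1% lower and 6.43% higher. The relative log2 ratios of the 7 ran from -0.93 (-0.97 to -0.88) for SDF2L1 to -0.31 (-0.35 to -0.27) for PDIA6, with CALR at -0.87, DNAJB11 at -0.74, HSP90B1 at -0.72, HSPA5 at -0.59 and PDIA4 at -0.56. XBP1 (0.17), HERPUD1 (0.28) and DNAJB9 (0.93) were above the median of all genes. For XBP1 and HERPUD1 the sign depends on scaling, since their log2 ratios before subtraction were -0.25 and -0.13. This comparison shares the DMSO 72 h library with the paclitaxel comparison at 72 h, so low values here and high values there are not separate observations.

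The comparisons at 24 h and 72 h share no library. The relative log2 ratio was higher at 72 h than at 24 h by 0.99 (0.90 to 1.07) for HSPA5, 0.81 (0.69 to 0.92) for XBP1, 0.63 (0.48 to 0.78) for HERPUD1 and 0.63 (0.52 to 0.73) for DNAJB11. The other genes ranged from 0.14 (0.09 to 0.20) for PDIA6 to 0.60 (0.54 to 0.65) for CALR. For DNAJB9 the difference was 0.11 with an interval of -0.12 to 0.35, which includes 0.

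The genes with an element in their promoter did not form 1 group in these ratios. At 72 h the ERSE genes ran from 0.25 (CALR) to 1.12 (HSPA5), the ERSE-II genes stood at 0.24 (SDF2L1) and 1.40 (HERPUD1), and the genes with neither match ran from 0.11 (PDIA4) to 1.18 (DNAJB9). The set as a whole took 1342 CPM in DMSO 24 h, 1193 in paclitaxel 24 h, 657 in DMSO 72 h and 1186 in paclitaxel 72 h. Within it, HSPA5 made up 8.04%, 8.99%, 8.18% and 12.3% of the summed level, HERPUD1 1.54%, 2.68%, 2.86% and 5.23%, and CALR 26.1%, 20.9%, 22.0% and 18.1%. So the summed level of paclitaxel 72 h was near that of paclitaxel 24 h, with more of it from HSPA5 and HERPUD1 and less from CALR.

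To describe single cells, each cell was thinned to 20000 UMIs, which left 1080, 750, 766 and 481 cells and left out 21, 26, 17 and 39 shallower ones. The 10 genes together gave a median of 26 UMIs per cell in DMSO 24 h, 19 in paclitaxel 24 h, 12 in DMSO 72 h and 21 in paclitaxel 72 h. The 10th and 90th percentiles were 16 and 40, 9 and 38, 5.5 and 22, and 11 and 39. The distribution of DMSO 72 h as a whole lay low, and paclitaxel cells at 72 h spread over the range of both 24 h libraries. At 72 h, 44.9% (40.4 to 49.5) of paclitaxel cells lay above the 90th percentile of DMSO cells, which 8.88% of DMSO cells exceeded. At 24 h the share was 8.40% (6.51 to 10.6), beside 9.17% in DMSO. Of the paclitaxel 72 h cells, 85.4% were above the median of DMSO 72 h, 57.2% above that of paclitaxel 24 h and 33.1% above that of DMSO 24 h. All shares carry exact binomial intervals.

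**Figure D3:**
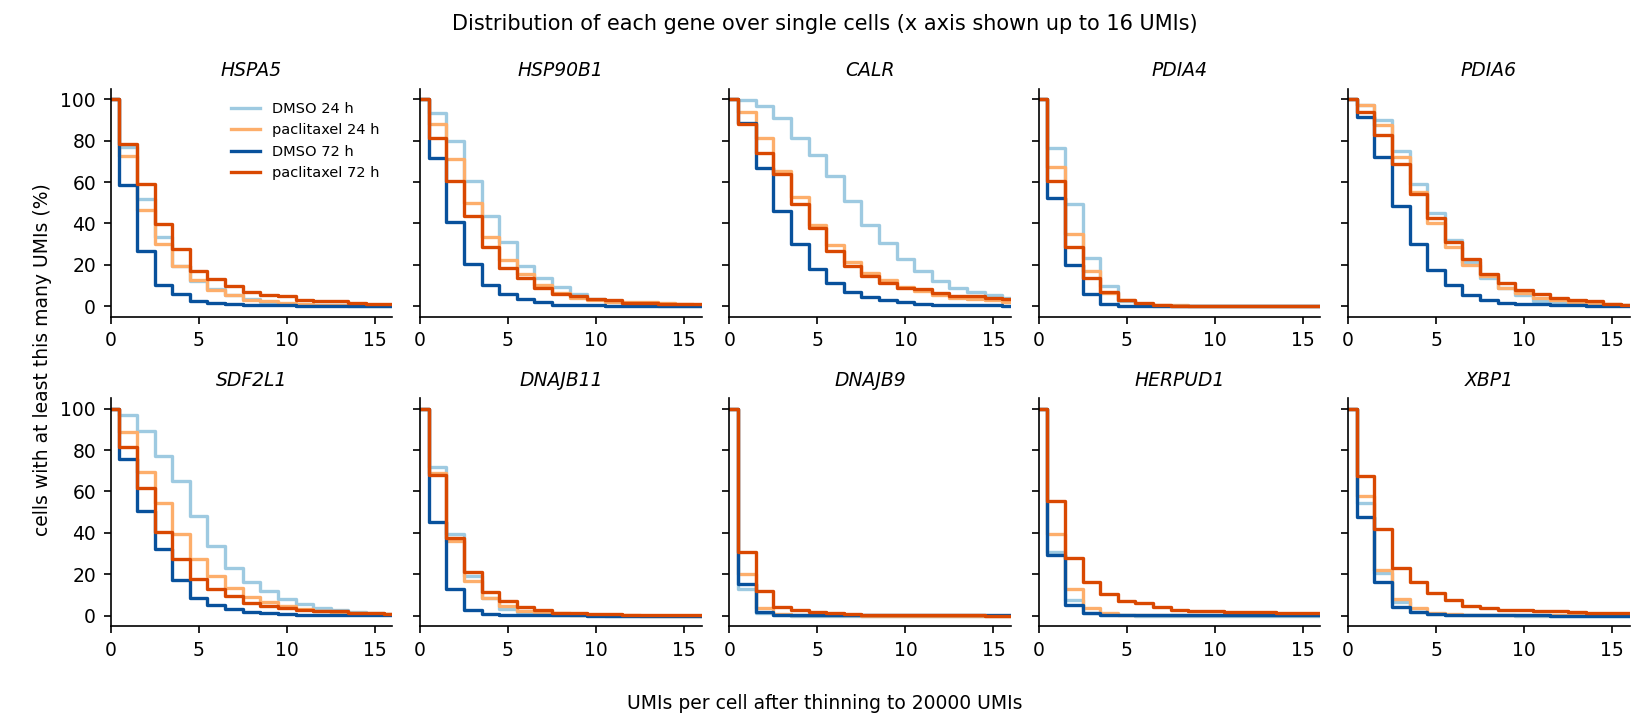
Share of cells (%) with at least the number of UMIs on the x axis, per gene, after thinning to 20000 UMIs, 1 line per library. For HERPUD1 and XBP1 the paclitaxel 72 h line has a tail beyond the other 3 lines, and for CALR and SDF2L1 the DMSO 24 h line lies above the others over most of the range.

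HERPUD1 had a UMI in 30.7% (28.0 to 33.6) of DMSO 24 h cells, 39.6% (36.1 to 43.2) of paclitaxel 24 h cells, 29.2% (26.0 to 32.6) of DMSO 72 h cells and 55.5% (50.9 to 60.0) of paclitaxel 72 h cells. Without thinning the shares were 64.2%, 73.6%, 59.1% and 80.2%. The line holds no cell type known to lack the gene, so no background share from free RNA can be set beside them. More than 1 UMI of HERPUD1 was found in 28.1% (24.1 to 32.3) of paclitaxel 72 h cells and in 5.22% of DMSO 72 h cells and 7.41% of DMSO 24 h cells. For XBP1, 23.1% (19.4 to 27.1) of paclitaxel 72 h cells had more than 2 UMIs, beside 4.31% of DMSO 72 h cells and 6.39% of DMSO 24 h cells. HSPA5 gave 27.7% (23.7 to 31.9) against 5.74% for more than 3 UMIs, and 19.5% (17.2 to 22.0) in DMSO 24 h. For the 10 genes summed, 63.1% of DMSO 24 h cells lay above the level that 44.9% of paclitaxel 72 h cells exceeded.

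The spread over cells, as variance over the mean, was widest in paclitaxel 72 h for every gene except DNAJB9. The variance over the mean of HSPA5 was 2.40, 2.84, 3.23 and 19.1, where a Poisson count gives 1. HERPUD1 gave 1.18, 2.10, 2.02 and 9.42, and XBP1 gave 4.29 in paclitaxel 72 h and at most 1.69 in the other libraries. CALR gave 4.84 in paclitaxel 72 h and at most 3.47 in the others. DNAJB9 gave 3.32 in DMSO 72 h and 2.79 in paclitaxel 72 h. Without the cell highest in the summed genes of each library, DNAJB9 gave 1.04 and 2.79 there. The paclitaxel 72 h library held 1 cell with 155 HSPA5 UMIs after thinning, and without it the values in that library were 3.83 for HSPA5 and 6.54 for HERPUD1. With the cell highest in the summed genes left out of each library, a step added after seeing the data, the other libraries gave at most 2.67 and 2.09. The cell with 155 UMIs held 183 of the library's 5070 HSPA5 UMIs and 57 HERPUD1 UMIs, but 0 of HSP90B1 and 1 of SDF2L1. Without the 5 highest cells per library HSPA5 was at 139 CPM in paclitaxel 72 h and 50.9 CPM in DMSO 72 h.

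Cells without a UMI of the proliferation genes MKI67 and TOP2A numbered 50, 145, 210 and 194 of 1101, 776, 783 and 520 kept cells, so their number moved with the groups. After thinning, the mean summed UMIs of the 10 genes in such cells were 20.4, 17.1, 11.4 and 25.9. In cells with a UMI of either gene they were 27.1, 23.3, 13.7 and 23.6. The medians were 18, 14, 9 and 20 in the first class and 26, 21, 12 and 21 in the second. In paclitaxel 72 h the mean was therefore higher in the first class, but the median was not. Paclitaxel 72 h was thus above DMSO 72 h in both classes of cells. HERPUD1 had means of 2.37 and 1.17 UMIs in the first and second class of paclitaxel 72 h, and 0.50 and 0.34 in DMSO 72 h.

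Across the cells of a library the 10 genes varied together only weakly. The median Pearson r of log UMIs over the 45 pairs was 0.08 in DMSO 24 h, 0.15 in paclitaxel 24 h, 0.13 in DMSO 72 h and 0.10 in paclitaxel 72 h. These are descriptions over 481 to 1080 cells that share a library and its free RNA. The pair with the highest mean over libraries was PDIA6 and CALR, at 0.20, 0.43, 0.29 and 0.13. HSP90B1 and PDIA6 followed at 0.24, 0.38, 0.29 and 0.08. In paclitaxel 72 h the highest pair was another, XBP1 and HERPUD1 at 0.33, and XBP1 and PDIA4 were lowest at -0.11. Thinning to 10000 UMIs gave medians of 0.04, 0.10, 0.10 and 0.08.

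**Figure D4:**
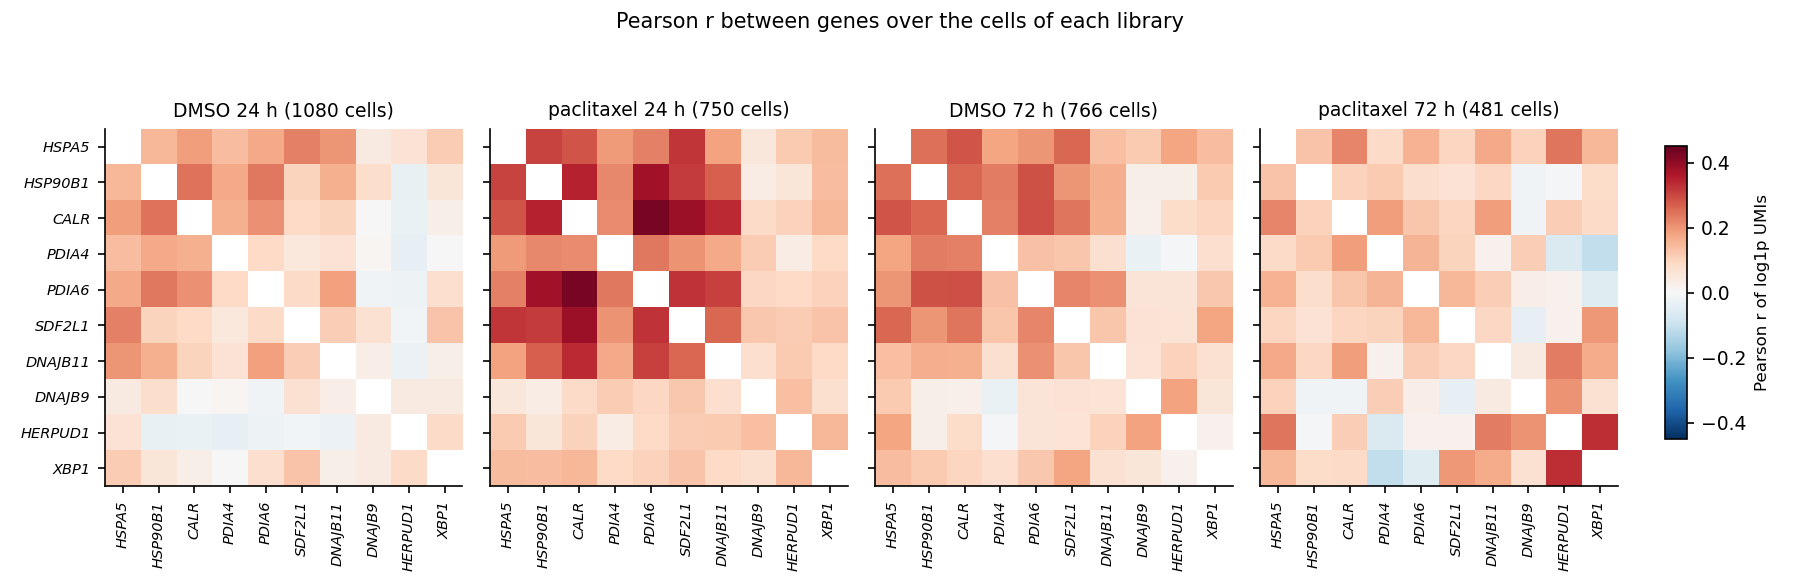
Pearson r of log1p UMIs between each pair of genes over the thinned cells of each library (colour; white diagonal not computed). The block of HSPA5, HSP90B1, CALR, PDIA6 and SDF2L1 is darkest in paclitaxel 24 h, and XBP1 with HERPUD1 is the darkest pair in paclitaxel 72 h.

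Of 1992 other genes with at least 50 CPM in every library, those most like the mean score of the 10 genes over cells were TUBB4B (mean r over 4 libraries 0.33), UBE2S (0.31), ARL6IP1 (0.30), RANBP1 (0.30), HSP90AA1 (0.29), LRRC59 (0.29), ACTB (0.29), CDKN3 (0.28), MYL12A (0.28) and TMED9 (0.28). The median of all compared genes was 0.07. At 10000 UMIs 6 of these 10 were again among the 10. TUBB4B was at 210, 207, 77.5 and 198 CPM, TMED9 at 225, 185, 112 and 233 CPM, and UBE2S at 849, 610, 328 and 332 CPM. All 10 were lowest in DMSO 72 h. At 72 h the relative log2 ratio of paclitaxel was 1.03 for TUBB4B and 0.73 for TMED9. It was below 0 for UBE2S (-0.30), CDKN3 (-0.22), RANBP1 (-0.17) and ARL6IP1 (-0.08), and above 0 for the rest.

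Other ER genes were counted in 9 lists with the minimum of 10 CPM and the same 1.5-fold rule. The targets of PERK and ATF4, the arm of the response that limits translation, were higher in 12 of 12 measured genes at 72 h. This stands beside 25.2% of all genes, and the median relative log2 ratio was 0.97 beside 0.70 for the 10 folding genes. ASNS and STC2, at 7.96 and 9.57 CPM in DMSO 72 h, reached the minimum through the paclitaxel library, so this count is a description. With DMSO 24 h as the reference, 8 of 12 were higher and 0 lower, beside 16.2% and 11.8% of all genes. SLC3A2, an amino acid transporter chain, was at 57.0, 64.8, 27.1 and 152 CPM (2.16 at 72 h), and ASNS, asparagine synthetase, at 13.1, 20.6, 7.96 and 32.4 CPM (1.70). NUPR1, a stress-induced chromatin protein, was at 89.9, 143, 107 and 338 CPM (1.35). Against DMSO 24 h these 3 had ratios of 1.45, 1.35 and 1.95. At 24 h 3 of 12 were higher (ASNS, CEBPB and NUPR1), beside 4% of all genes, with a median of 0.50. In DMSO over time 1 of 12 was higher (DDIT4, 1.20) and 6 were lower, beside 6.43% and 25.1% of all genes. ASNS and STC2 reached the minimum there through the DMSO 24 h library.

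Of the stress sensors and their transcription factors, 2 of 13 were higher at 72 h, ATF3 and DDIT3 (CHOP), beside 25.2% of all genes. The median was -0.07. ATF3 was at 15.1, 19.8, 8.15 and 83.0 CPM (relative log2 ratio 3.03 at 72 h and 2.50 against DMSO 24 h). DDIT3 was at 19.7, 22.2, 13.7 and 71.3 CPM (2.06 and 1.89). At 24 h 0 of 13 were called in either direction, beside 4% of all genes higher and 3.62% lower. Over time in DMSO 1 of 13 was lower (ATF3), beside 25.1% of all genes. With 8.15 CPM in DMSO 72 h, ATF3 reached the minimum at 72 h through the paclitaxel library and over time through DMSO 24 h. ATF3 and DDIT3 were also the 2 genes of 13 called against DMSO 24 h, both higher, beside 16.2% of all genes higher.

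Other ER chaperones and co-chaperones were higher in 4 of 20 at 72 h (DNAJC3, SIL1, MANF and PPIB), with a median of 0.05. Over all genes, 25.2% were higher at 72 h. MANF, a secreted partner of HSPA5, was at 84.5, 93.9, 33.8 and 91.4 CPM, with 1.11 at 72 h but 0.15 against DMSO 24 h. Of the disulfide isomerases and oxidative folding genes 6 of 14 were higher (median 0.11), among them ERP44, a thiol retention factor, at 24.2, 30.2, 16.6 and 41.8 CPM (1.02, and 0.83 against DMSO 24 h). ER-associated degradation had 8 of 25 higher (median 0.05), with DERL2, a part of the exit channel, at 37.1, 37.9, 25.2 and 58.5 CPM (0.89, and 0.70 against DMSO 24 h). In these 3 lists 0 genes were called at 24 h, beside 4% of all genes higher and 3.62% lower. Over time in DMSO 6 of 20, 7 of 14 and 5 of 24 were lower, beside 25.1% of all genes. Against DMSO 24 h the 3 lists had 0 of 20, 1 of 14 and 3 of 25 genes higher and 3, 0 and 0 lower. Of all genes, 16.2% were higher and 11.8% lower. HERPUD2, a degradation gene counted there as higher, reached the minimum through the paclitaxel library.

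Translocation and signal peptide cleavage had 6 of 23 higher at 72 h (median 0.14), N-glycosylation and glycoprotein quality control 6 of 20 (-0.07) and ER to Golgi transport 11 of 25 (0.15), with 0 lower in each. These shares stand beside 25.2% of all genes. SEC61A2, a translocation gene counted as higher, was at 6.80 CPM in DMSO 72 h and reached the minimum through the paclitaxel library. DAD1, a subunit of oligosaccharyltransferase, was at 162, 154, 98.6 and 224 CPM (0.87 at 72 h, and 0.51 against DMSO 24 h), and UGGT1, which senses misfolded glycoproteins, at 30.2, 23.6, 22.2 and 17.2 CPM (-0.69 and -0.77). With DMSO 24 h as the reference the 3 lists had 1 of 23, 1 of 21 and 1 of 25 genes higher and 1, 3 and 0 lower. Of all genes, 16.2% were higher and 11.8% lower. GMPPB, a glycosylation gene counted there as lower, reached the minimum through DMSO 24 h. Over time in DMSO 11 of 22, 8 of 20 and 7 of 25 were lower, beside the same 25.1%. SEC11A alone was higher over time, beside 6.43% of all genes. At 24 h, of 22, 21 and 25 measured genes, SEC61G alone was called, as lower (-0.58). Over all genes 4% were higher and 3.62% lower at 24 h. ER calcium handling had 2 of 12 higher and 1 lower at 72 h (median -0.23), beside 25.2% and 2.13% of all genes. The lower one, the calcium release channel ITPR2, was at 7.69, 28.2, 32.1 and 16.5 CPM, high in paclitaxel 24 h and DMSO 72 h. It was the 1 gene of its list called higher at 24 h (of 11) and over time in DMSO (of 12), where 4 were lower. Of all genes, 4% were higher at 24 h, and 6.43% were higher and 25.1% lower over time. Set against DMSO 24 h, 2 of 12 calcium genes were higher, ITPR2 among them, and 2 lower, beside 16.2% and 11.8% of all genes. With 7.69 CPM in DMSO 24 h, ITPR2 reached the minimum in each of these comparisons through the library where it was higher. These calls of ITPR2 are therefore descriptions.

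**Figure D5:**
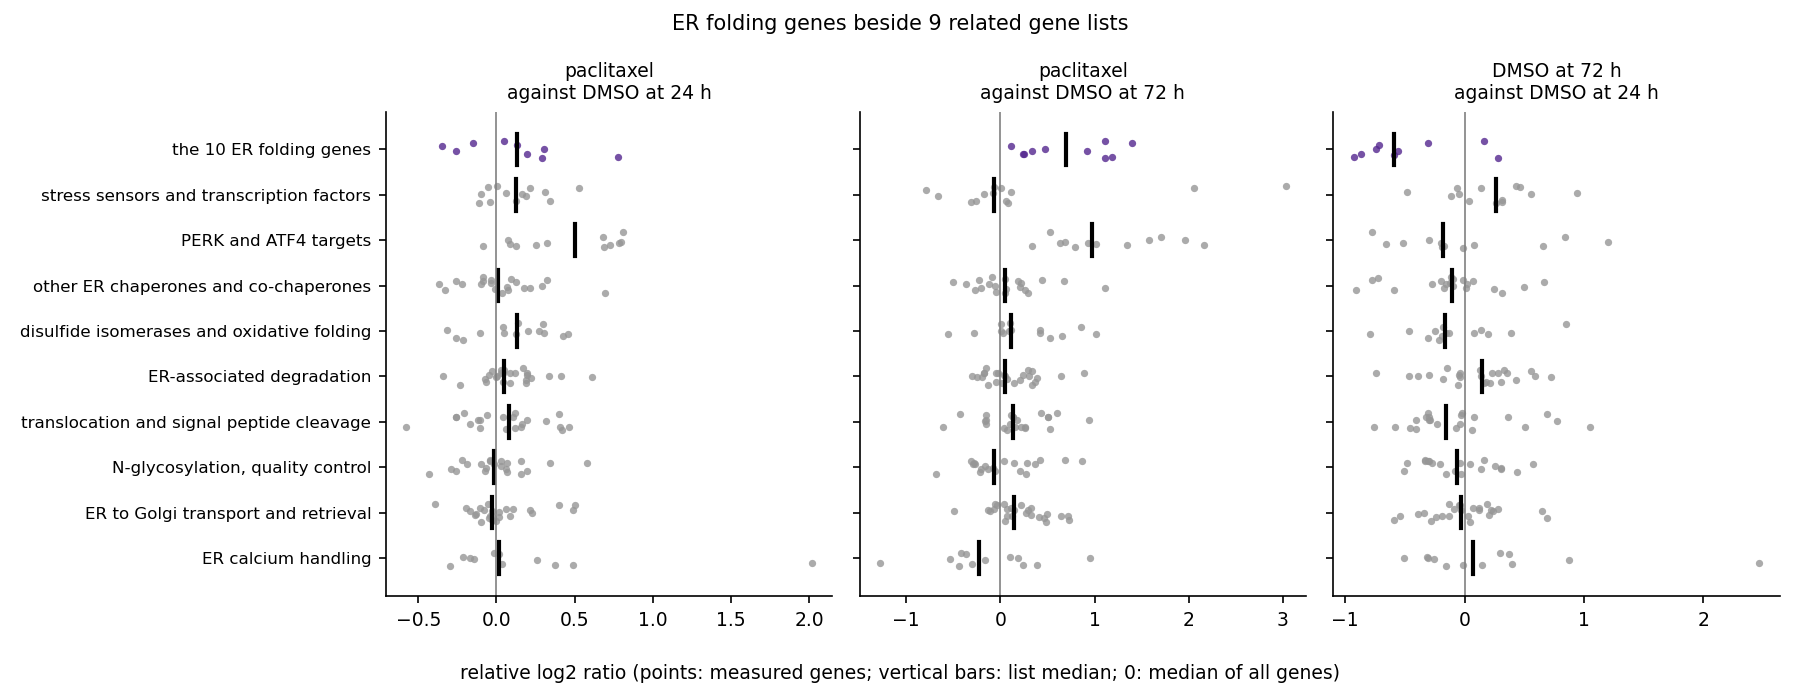
Relative log2 ratio of measured genes (mean of at least 10 CPM) in 10 lists and 3 comparisons; black bars are list medians. In the middle panel the 10 folding genes (median 0.70) and the PERK and ATF4 targets (0.97) lie to the right, and the medians of the other 8 lists run from -0.23 to 0.15; DNAJB9 is below the minimum in the outer panels.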

How the data were processed

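Counts are the raw UMIs per gene symbol and cell barcode that the authors deposited, 1 table per library, with no normalization. They came from Cell Ranger 2.0 with GRCh38, per the submitters' processing notes. The selection of cells and the strand setting are not given in the sources used here. No gene listed in a table had fewer than 12, 8, 8 or 6 cells with a UMI (24 h before 72 h, DMSO before paclitaxel), so absence from a table is not a measured 0.

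Barcodes with at least 500 genes and under 20% mitochondrially encoded (MT-) UMIs were kept, and all 14 left out failed the second limit. UMIs were summed per library and scaled to 1000000. Levels carry exact Poisson 95% intervals and ratios exact Clopper-Pearson intervals for counting error, with the subtracted median taken as fixed. Scrublet marked 6, 6, 9 and 12 cells as doublets, which were kept. Cells were thinned without replacement to 20000 UMIs, or 10000 as an alternative. Python 3.11.15, numpy 2.4.6, scipy 1.17.1, pandas 2.3.3 and scanpy 1.11.5 were used, and the ratio script was tested on simulated data. Positions are from GENCODE 29 (GRCh38) and promoters from RefSeq (GRCh38.p14).

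The genes, lists and rules were chosen with earlier results of these data known. Named are the 10 genes, per list those with the largest absolute relative log2 ratio (3 at 72 h, 1 at 24 h and 1 in DMSO over time, of which examples are given), and the 10 genes most like the set; other list genes are named where counts are spelled out. Groups follow the treatment and time labels. Alternatives covered scaling, cell weights and filters, doublets, proliferating cells, thresholds, thinning depth and the reference library.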

Additional observations from a re-analysis of the deposited data

Results flagged for a closer look

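For 3 genes the paclitaxel ratio had opposite signs at the 2 times, with 1 library per group, so the difference was not tested across samples. The relative log2 ratio of SDF2L1 was -0.26 at 24 h and 0.24 at 72 h. PDIA4 had -0.15 at 24 h and 0.11 at 72 h. CALR had -0.35 at 24 h and 0.25 at 72 h. The 72 h values use the DMSO 72 h library, which stood apart in its share of ribosomal protein UMIs. Against DMSO 24 h the paclitaxel 72 h library had -0.74, -0.50 and -0.67 for the 3 genes; that ratio and the 24 h ratio share the DMSO 24 h library, the highest of the 4 for each of them.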

How the results depend on the processing

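No paired analysis was possible because each group has 1 library, and for the same reason no replicate could be left out. At 24 h, 0 genes were counted in either direction; 1 was lower with the mean of per-cell CPM, 2 were lower in cells without MKI67 and TOP2A, and 2 were higher with no minimum level. The median log2 ratio of the 10 genes, 0.02, became 0.11 with TMM, 0.12 with totals without ribosomal protein and MT- genes, -0.042 with per-cell means and -0.11 in cells without MKI67 and TOP2A. At 72 h, 5 genes were higher; 3 were with TMM, 3 at 2-fold and 8 with per-cell means, and with DMSO 24 h as the reference 1 was higher and 2 were lower. The median, 1.02, became 0.74, 0.72 and 1.10 with the first 3 scalings and 0.011 with DMSO 24 h as the reference. With that reference the log2 ratios changed sign to -0.33 for HSP90B1, -0.061 for PDIA6, -0.78 for SDF2L1, -0.54 for PDIA4 and -0.71 for CALR. For DMSO over time the median of -0.99 became -0.84 with TMM, -0.70 without ribosomal protein and MT- genes and -0.73 in cells without MKI67 and TOP2A. The median change of the paclitaxel ratio between times, 1.01, became 0.61 without ribosomal protein and MT- genes. Over the other 9 lists, 4 genes were higher and SEC61G alone lower at 24 h, beside 4% and 3.62% of all genes. At 72 h 57 were higher and 1 lower, beside 25.2% and 2.13%. Over time in DMSO 3 were higher and 55 lower, beside 6.43% and 25.1%. With a minimum of 50 CPM, 2 were higher and SEC61G alone lower at 24 h (all genes 4.22% and 4.41%). The other counts were then 27 and 0 (27.9% and 2.74%), and 1 and 34 (6.92% and 35.5%). Without ribosomal protein and MT- genes in the total, 8 were higher and SEC61G alone lower at 24 h. The other counts were then 29 and 6, and 9 and 18. Shares of all genes are not given for this setting. With DMSO 24 h as the reference, chosen after seeing the data, the 72 h counts were 19 and 9, beside 16.2% and 11.8%. The median r in DMSO 72 h was 0.21 in cells without MKI67 and TOP2A. The 50 CPM minimum, the 2-fold threshold and the proliferation filter use fewer genes or cells by construction; the cause of the other shifts was not tested. The other cell filters and the doublet calls moved no count of genes past 1.5-fold by over 1.5 times. Thinning to 10000 UMIs left the share of paclitaxel 72 h cells above the 90th percentile of DMSO for the 10 genes summed at 45.4%. Shares of cells per gene fall with depth by construction: more than 1 HERPUD1 UMI was then found in 13.8% of paclitaxel 72 h and 1.66% of DMSO 72 h cells.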

Other observations

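A single DMSO 72 h cell stood far above its library in the summed level of the 10 genes. It held 594 of its 61291 UMIs in them, 9691 CPM, where the next cell of that library had 2740 CPM. It held 142 UMIs of SDF2L1, 89 of PDIA6, 87 of HSPA5, 55 of DNAJB9, 49 of HERPUD1 and 38 of XBP1, and these were 2.93%, 1.27%, 3.29%, 12.2%, 5.30% and 2.21% of all UMIs of each gene in the library's 783 kept cells. Its 6509 detected genes and 7.51% MT- UMIs lay near the medians of the library, 6902 and 6.92%. The highest paclitaxel 72 h cell had 12311 CPM from 22662 UMIs, of which HSPA5 gave 183 and HSP90B1 0. It was shallower than most cells of its library, with 3868 detected genes beside a median of 7147, and a median of 57545 UMIs. Its MT- share was 8.32%, beside a median of 6.55%.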
